A study of Homo sapiens with 12 samples.

Results

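The ETS transcription factors examined here were ERG, FLI1, SPI1 (which encodes PU.1), SPIB, ETV6, ELF1, ELF4, ETS1, ETS2 and GABPA, 10 of the 20003 genes with a usable symbol in the mRNA-seq of NB4 and Kasumi-1 cells. They were taken by gene symbol, with earlier results of these data known, and all 10 had a value in each of the 12 samples. With OGP46, 8 of the 10 were tested for a changed mRNA level in each cell line, and none passed. Of all genes tested, 1.56% passed in NB4 and 0.0338% in Kasumi-1. The lines themselves differed by far more than their treated and control samples. ERG was at 10.2 to 11.6 FPKM in Kasumi-1 cells and at most 0.184 FPKM in NB4 cells, while ETS1 was at 7.85 to 17.1 FPKM in NB4 cells and at most 0.0519 FPKM in Kasumi-1 cells. SPI1 had the highest mean level of the 10 in all 4 groups of samples, and its level in the control samples of the lines did not differ detectably.

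ETS proteins share a DNA-binding domain, the ETS domain, which contacts a short core of GGAA, and they differ in the bases they prefer around this core. In blood cell formation, ERG and FLI1 act in stem and progenitor cells together with GATA2, RUNX1 and the TAL1 group of factors, and PU.1 is required for the macrophage and granulocyte lineages. ETV6 is a repressor, ELF1 and ELF4 are activators of one subfamily, and GABPA is the DNA-binding subunit of GA-binding protein, which controls many genes of general cell function.

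NB4 cells come from an acute promyelocytic leukemia (APL) and carry the PML-RARα fusion, and Kasumi-1 cells come from another acute myeloid leukemia (AML) and carry the AML1-ETO fusion. Cells of each line were incubated with 1 μM OGP46, a kaurene diterpenoid derived from oridonin, or with DMSO as control, for 48 h by the sample labels and the methods (a figure legend of the study gives a longer time), which gave the groups NB4 control, NB4 OGP46, Kasumi-1 control and Kasumi-1 OGP46 with 3 samples each. Each fusion is present in 1 line only, so an effect of the fusion and any other property of the line cannot be told apart. The sample labels do not state whether the 3 samples of a group came from separate cultures, although the study describes its experiments as independently repeated, so the p-values measure the spread between these samples, which may be technical.

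The values are FPKM, fragment counts scaled for transcript length and library size, which can be compared between genes. In each sample 9339 to 9746 genes reached 1 FPKM, and the read depth of the samples is unknown. The genes that mark Kasumi-1 cells (RUNX1T1, TRH, POU4F1, CD34 and KIT) summed to 237 to 299 FPKM in Kasumi-1 samples and to 0.563 to 3.60 FPKM in NB4 samples. The primary granule genes of promyelocytes (MPO, ELANE, PRTN3, AZU1 and CTSG) summed to 2605 to 3945 FPKM in NB4 control, 1586 to 2812 FPKM in NB4 OGP46, 9612 to 11917 FPKM in Kasumi-1 control and 7759 to 8972 FPKM in Kasumi-1 OGP46 samples. ELANE, one of these genes, was no higher than 14.5 FPKM in any NB4 sample. Among markers of other blood and vessel cells, MS4A1, CLEC4C and ALAS2 were listed at 0 in all 12 samples, and the sum of CDH5, VWF and KDR was at most 0.0330 FPKM. The T cell gene CD3D was at 13.5 to 20.4 FPKM in NB4 control and 22.5 to 34.6 FPKM in NB4 OGP46 samples, with CD3E at no more than 0.0608 FPKM there.

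By RefSeq annotation of GRCh38.p14, 2 pairs of these genes are neighbours. ERG (chr21:38367261-38661783) and ETS2 (chr21:38805183-38824955) lie 143.4 kb apart, and ETS1 (chr11:128458765-128587558) and FLI1 (chr11:128685132-128813267) lie 97.6 kb apart. GABPA (chr21:25734972-25772460) and RUNX1 (chr21:34787801-35049302), the gene whose N-terminal part is in AML1-ETO, are on the chromosome of ERG. SPI1 is at chr11:47354860-47378547, ETV6 at chr12:11649674-11895377, ELF1 at chr13:40931919-41061386, SPIB at chr19:50418938-50431314 and ELF4 at chrX:130063955-130111858.

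RefSeq promoter sequences, 300 bases from 250 before to 50 after a transcription start, were at hand for 7 of the 10 genes, in 15 windows. The 4 letters of the ETS core, GGAA or TTCC on the other strand, were in 13 of the 15, and in 95.5% of all 35116 promoters of this length. The longer form GAGGAA, the core of the purine-rich box that PU.1 binds, was in 4 of the 15 and in 27.9% of all promoters. CCGGAAG, a form that GABPA prefers, was in 1 of the 15, the promoter of GABPA itself, and in 10.3% of all. Both strands were searched, and each longer motif overlaps a GGAA. These matches describe the letters only. Shown are the 250 bases before 3 starts of ERG, because ERG was far apart between the lines, and before the start of GABPA, because of its CCGGAAG. They are written 5′ to 3′ in the direction of the gene, and capitals mark GGAA and TTCC. The ERG stretches are on the minus strand and the GABPA stretch is on the plus strand. The upstream ERG stretch (chr21:38660668-38660917) holds 1 such core, the middle one (chr21:38584946-38585195) 4, the downstream one (chr21:38498478-38498727) 2 and the GABPA stretch (chr21:25734722-25734971) 1.
ERG, upstream start: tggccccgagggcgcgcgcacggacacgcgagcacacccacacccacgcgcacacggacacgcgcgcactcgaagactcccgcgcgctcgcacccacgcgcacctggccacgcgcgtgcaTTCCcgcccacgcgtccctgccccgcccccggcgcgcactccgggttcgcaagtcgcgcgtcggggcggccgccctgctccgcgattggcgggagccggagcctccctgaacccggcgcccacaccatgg
ERG, middle start: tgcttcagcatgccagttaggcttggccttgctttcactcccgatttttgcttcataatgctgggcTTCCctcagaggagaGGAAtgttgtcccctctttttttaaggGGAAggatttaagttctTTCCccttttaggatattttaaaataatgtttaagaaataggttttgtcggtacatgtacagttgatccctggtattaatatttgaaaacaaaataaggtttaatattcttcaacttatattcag
ERG, downstream start: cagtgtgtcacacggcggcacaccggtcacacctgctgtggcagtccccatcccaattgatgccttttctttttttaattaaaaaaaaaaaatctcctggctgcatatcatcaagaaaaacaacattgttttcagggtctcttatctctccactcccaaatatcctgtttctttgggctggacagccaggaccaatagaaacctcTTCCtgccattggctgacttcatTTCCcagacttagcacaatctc
GABPA: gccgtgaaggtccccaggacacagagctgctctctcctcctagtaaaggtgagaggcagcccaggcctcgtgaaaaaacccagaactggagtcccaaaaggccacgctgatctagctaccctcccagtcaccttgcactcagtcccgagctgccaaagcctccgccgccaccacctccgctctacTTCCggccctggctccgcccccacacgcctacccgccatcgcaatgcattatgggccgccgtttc

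**Figure D1:**
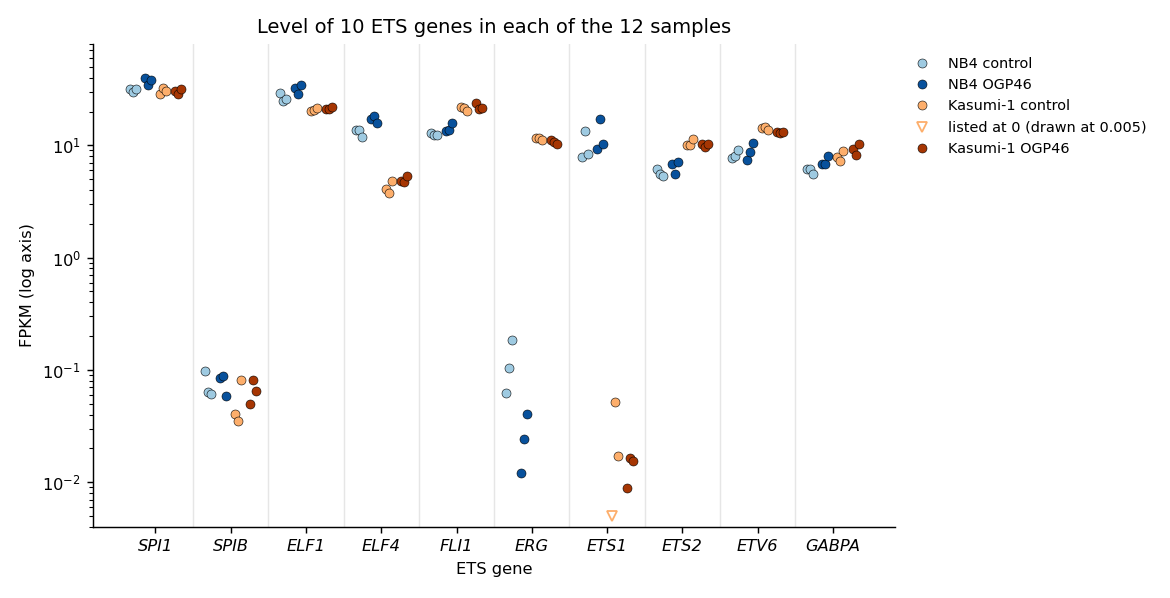
FPKM on a log axis (y) of the 10 ETS genes (x), with 1 point per sample coloured by group and an open triangle for the 1 value listed at 0. ERG is at 10.2 to 11.6 FPKM in Kasumi-1 and at most 0.184 FPKM in NB4 samples, ETS1 shows the opposite, SPIB is at most 0.0979 FPKM throughout, and the other genes stay between 3.76 and 39.7 FPKM.

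The plot of levels by sample shows how the 10 genes were ordered. In NB4 control the means fell from SPI1 through ELF1, ELF4, FLI1, ETS1, ETV6, GABPA and ETS2 to ERG and SPIB, with overlapping ranges from each gene to the next from ELF4 to ETV6, between GABPA and ETS2 and between ERG and SPIB. In NB4 OGP46 the order was the same except that SPIB stood above ERG. There the neighbours overlapped between SPI1 and ELF1 and from ELF4 down to ETS2. The order in both Kasumi-1 groups was SPI1, FLI1, ELF1, ETV6, ERG, ETS2, GABPA, ELF4, SPIB and ETS1, with overlap of FLI1 with ELF1 and of ERG with ETS2 in both, of SPIB with ETS1 in control and of ETS2 with GABPA after OGP46. The 10 genes summed to 110 to 116 FPKM in NB4 control, 133 to 141 FPKM in NB4 OGP46, 119 to 123 FPKM in Kasumi-1 control and 117 to 124 FPKM in Kasumi-1 OGP46 samples. The total over all genes was also higher in NB4 OGP46 (263341 to 291523 FPKM) than in NB4 control (248207 to 256268 FPKM). Their share of the total was 0.0444 to 0.0451% in NB4 control and 0.0483 to 0.0505% in NB4 OGP46. In Kasumi-1 it was 0.0394 to 0.0438% in control and 0.0405 to 0.0444% with OGP46.

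The control samples were compared first, to see which ETS factors each leukemia expresses before treatment. Values of log2(FPKM + 0.1) were tested with limma for every gene whose mean reached 0.1 FPKM. A call needed an adjusted p (Benjamini-Hochberg) below 0.05 together with a log2 fold change of 0.58 or more in either direction. Of the 10 genes, 9 passed the minimum, and 6 of these were called, 4 higher and 2 lower in Kasumi-1. The lines differ widely in general, since 52.4% of the 12302 genes tested were called, 29.7% higher and 22.7% lower in Kasumi-1. The share of calls among ETS genes is therefore near the background, and the sizes are what sets single genes apart. Fewer cells that express a gene and less mRNA per cell cannot be told apart in such bulk samples.

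ERG was at 11.5, 11.6 and 11.2 FPKM in the Kasumi-1 control samples. In the NB4 control samples it was at 0.0621, 0.104 and 0.184 FPKM. No NB4 sample came near the lowest Kasumi-1 value, and the log2 fold change was 5.77 (SE 0.20, adjusted p = 5.85e-08, limma). Because the NB4 values are near the constant of 0.1 added before the logarithm, the size depends on it, with 3.48 for a constant of 1 and 6.61 for 0.01. ETS2, the neighbour of ERG, is a broadly expressed ETS activator that responds to RAS and MAP kinase signaling. It was at 10.1, 10.01 and 11.4 FPKM in Kasumi-1 control and 6.20, 5.61 and 5.31 FPKM in NB4 control. It was thus expressed in both lines, and higher in Kasumi-1 by a log2 fold change of 0.87 (SE 0.09, adjusted p = 3.34e-05, limma).

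ETS1, the founding member of the family and best known in lymphocytes and endothelium, showed the reverse of ERG. It was at 7.85, 13.4 and 8.31 FPKM in NB4 control. In Kasumi-1 control it was listed at 0, 0.0519 and 0.0170 FPKM. The samples did not overlap, with a log2 fold change of -6.32 (SE 0.24, adjusted p = 7.54e-08, limma), which was -3.37 for a constant of 1 and -8.55 for 0.01. ETS1 reached the minimum mean only through its NB4 samples, and its Kasumi-1 values lie below the constant of 0.1. The second NB4 control sample was the highest of its group, and the NB4 OGP46 sample of the same number was also the highest of its group. FLI1, the neighbour of ETS1 and the closest relative of ERG, was present in both lines. Its values were 22.2, 21.7 and 20.4 FPKM in Kasumi-1 control against 12.9, 12.3 and 12.4 FPKM in NB4 control, higher in Kasumi-1 by a log2 fold change of 0.76 (SE 0.07, adjusted p = 1.08e-05, limma). Kasumi-1 samples thus held transcripts of both close relatives, and NB4 samples mainly those of FLI1.

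SPI1 was at 28.8, 32.6 and 30.6 FPKM in Kasumi-1 control and 31.6, 29.9 and 31.6 FPKM in NB4 control. These ranges overlap. The log2 fold change was -0.02 with a 95% confidence interval of -0.18 to 0.14 (adjusted p = 0.83, limma), and it moved to -0.16 (adjusted p = 0.0308) after centring each sample on its median, below the minimum of 0.58. Its adjusted p ran from 0.00974 to 0.967 over all alternatives. SPIB, the lymphoid relative of PU.1, was under the minimum for a test in both lines. Its highest value in the 12 samples was 0.0979 FPKM, in an NB4 control sample.

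ELF4, known from natural killer and T cells and from stem cell quiescence, was at 13.6, 13.7 and 11.9 FPKM in NB4 control and 4.10, 3.76 and 4.82 FPKM in Kasumi-1 control. It was 3.05-fold higher in NB4 on this scale (log2 fold change -1.61, SE 0.11, adjusted p = 1.82e-06, limma). ELF1 pointed the same way with 29.3, 24.6 and 25.8 FPKM against 20.3, 20.6 and 21.4 FPKM. The groups did not overlap, but the log2 fold change of -0.35 (SE 0.08, adjusted p = 0.00352, limma) is below the minimum. ETV6, a repressor that is itself a frequent partner in leukemia fusions, was at 14.3, 14.6 and 13.8 FPKM in Kasumi-1 control and 7.76, 7.98 and 9.03 FPKM in NB4 control (log2 fold change 0.78, SE 0.08, adjusted p = 3.14e-05, limma). GABPA was at 7.84, 7.26 and 8.97 FPKM against 6.20, 6.19 and 5.56 FPKM, a log2 fold change of 0.41 (SE 0.10, adjusted p = 0.00519, limma) that is below the minimum. After scaling to TPM, the log2 fold changes of FLI1 (0.56) and ETV6 (0.57) also fell just below it, and the median of all genes moved from 0.10 to -0.10.

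**Figure D2:**
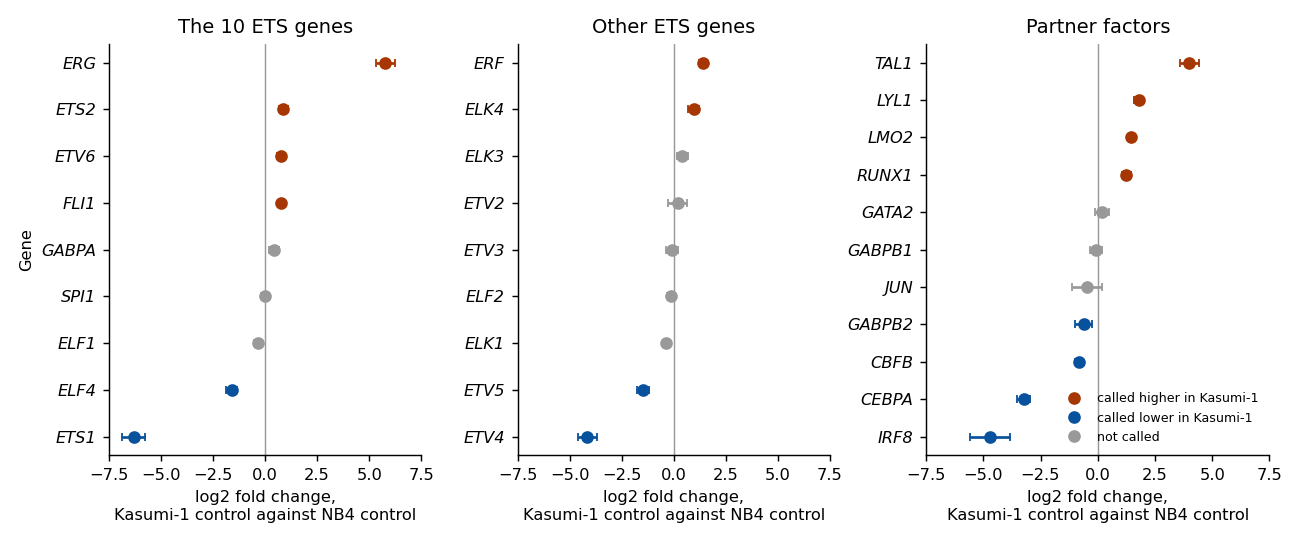
Log2 fold change of Kasumi-1 control against NB4 control on log2(FPKM + 0.1) (x), with 95% confidence intervals from limma, for the ETS genes described here, other ETS genes and partner factors (y, 3 panels), coloured by call. ERG (5.77) and ETS1 (-6.32) lie far out on opposite sides, SPI1 is at -0.02, and the partners run from -4.70 for IRF8 to 4.001 for TAL1.

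Partner factors of ETS proteins, both DNA-binding proteins and subunits that join them, were compared in the same way from a list of 12, of which 11 were tested. TAL1, LYL1, LMO2 and RUNX1, which occupy stem cell enhancers together with ERG and FLI1, were called higher in Kasumi-1, with log2 fold changes of 4.001, 1.79, 1.45 and 1.25. TAL1 was at 2.41 ± 0.38 FPKM (SD, n = 3) in Kasumi-1 control and 0.0567 ± 0.0212 FPKM in NB4 control. RUNX1 reads in Kasumi-1 can also come from the AML1-ETO transcript, which FPKM per gene do not separate. GATA2, the other factor of this group, was at 9.08 ± 0.172 FPKM in Kasumi-1 control and 8.13 ± 1.57 FPKM in NB4 control (log2 fold change 0.17, 95% confidence interval -0.13 to 0.48, adjusted p = 0.257, limma). On the lower side in Kasumi-1 were IRF8, which binds with PU.1 at composite sites in myeloid and B cells (log2 fold change -4.70), CEBPA, the main granulocytic factor (-3.23), CBFB, the partner of RUNX1 (-0.81), and GABPB2 (-0.62), one of the subunits that bind GABPA. The call for GABPB2 was lost for a constant of 1 (-0.35) and without the first NB4 control sample (-0.53) or the first or second Kasumi-1 control sample (-0.55 and -0.56). GABPB1, the other such subunit, was at 4.02 ± 0.278 FPKM against 4.31 ± 0.557 FPKM and was not called.

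In NB4 cells, OGP46 was compared with control to see whether the ETS factors change during 48 h of incubation. No ETS gene of the 10 was called among the 8 tested, where 1.56% of the 11750 genes tested were called (1.45% higher and 0.111% lower). All 8 log2 fold changes were above 0, from 0.08 for ETV6 to 0.38 for ELF4, but after median centring those of FLI1, ETV6 and ETS2 fell below 0, and after TPM scaling that of ETV6. Their median was 0.27, beside 0.18 for all genes tested, which shifted to 0.06 after TPM scaling and -0.04 after median centring. At an unadjusted p below 0.05 there were 4 of the 8 in limma, where 29.1% of all genes passed. With sample number as a block, 730 genes were called in place of 183, or 6.21% of those tested, still none of the 8.

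SPI1 was at 39.7, 34.4 and 38.6 FPKM in NB4 OGP46 beside 31.6, 29.9 and 31.6 FPKM in control. All treated samples lay above all controls. The log2 fold change was 0.27 (SE 0.08, adjusted p = 0.089, limma), a 1.21-fold higher level on this scale that did not pass. ELF4 showed the largest value of the 8, with 17.1, 18.4 and 15.7 FPKM beside 13.6, 13.7 and 11.9 FPKM (log2 fold change 0.38, SE 0.10, adjusted p = 0.0702, limma), again without overlap. FLI1 (13.3, 13.6 and 15.9 FPKM beside 12.9, 12.3 and 12.4 FPKM) and GABPA (6.78, 6.81 and 8.04 FPKM beside 6.20, 6.19 and 5.56 FPKM) were the other genes without overlap. A separation upward was seen for these 4 of the 8 and for 32.7% of all genes tested.

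The remaining ETS genes overlapped between NB4 groups. ELF1 was at 32.6, 28.9 and 34.7 FPKM after OGP46 beside 29.3, 24.6 and 25.8 FPKM (log2 fold change 0.27, SE 0.10, adjusted p = 0.128, limma). ETS1 was at 9.31, 17.1 and 10.3 FPKM beside 7.85, 13.4 and 8.31 FPKM, and its same-numbered samples differed by log2 ratios of 0.24, 0.35 and 0.30 in the same direction. ETS2 was at 6.88, 5.52 and 7.05 FPKM beside 6.20, 5.61 and 5.31 FPKM, and ETV6 at 7.34, 8.68 and 10.4 FPKM beside 7.76, 7.98 and 9.03 FPKM. With sample number as a block, the adjusted p fell below 0.05 for ELF4 (0.0103), ETS1 (0.0319), SPI1 (0.0324) and ELF1 (0.0433), each below the minimum change, where 21% of all genes were higher by the same measure. Over all alternatives the adjusted p ran from 0.0103 to 0.454 for ELF4, 0.0319 to 0.929 for ETS1, 0.0324 to 0.758 for SPI1 and 0.0433 to 0.773 for ELF1. The plot of fold changes with their intervals sets these values beside the median of all genes.

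**Figure D3:**
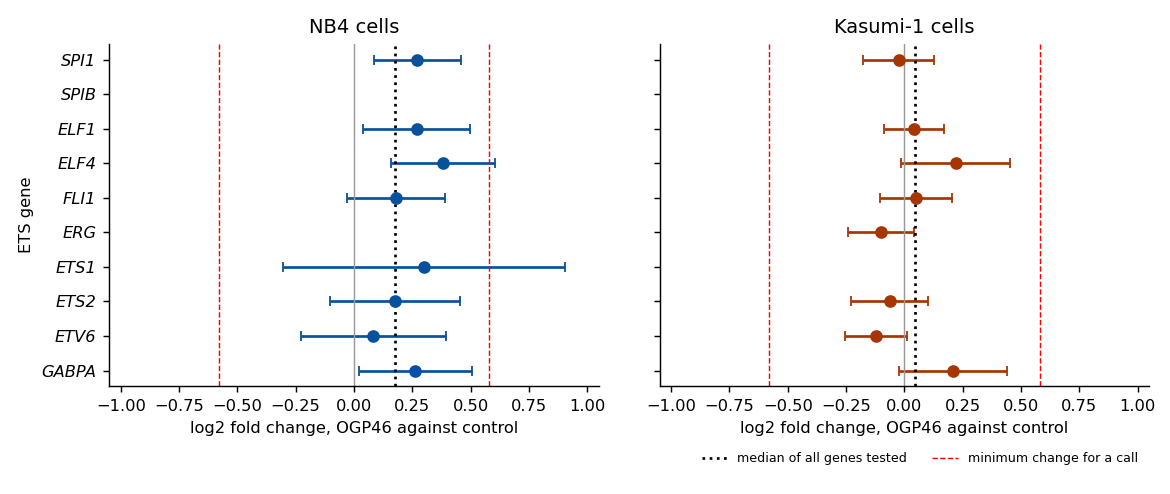
Log2 fold change of OGP46 against control on log2(FPKM + 0.1) (x) with 95% confidence intervals from limma for the ETS genes (y) in NB4 (left) and Kasumi-1 cells (right), where genes under the minimum level have no point. The dotted line is the median of all genes (0.18 and 0.05) and the dashed lines are the minimum change of 0.58, which no point reaches.

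ERG lay under the minimum level in NB4 cells and was fitted separately without it. The study had named ERG among the NB4 genes of a changed pathway, so its direction here is not independent evidence. It was at 0.0621, 0.104 and 0.184 FPKM in NB4 control and 0.0121, 0.0242 and 0.0403 FPKM in NB4 OGP46. All treated samples were below all controls, as for 1.91% of the genes that reached the minimum, a set without ERG. The share among genes as low as ERG was not tested. The fit gave a log2 fold change of -0.76 (SE 0.22, adjusted p = 0.12, limma), which did not pass, and only the block combined with median centring made the call (-0.98, adjusted p = 0.03). Over the alternatives tried the adjusted p ran from 0.03 to 0.276, and the size was -0.12 for a constant of 1, -1.80 for 0.01 and -0.54 without the third NB4 control sample. Relative to the lowest sample and to what 1 fragment is worth in each library, the 3 treated values are 1, 2.02 and 3.07 times the lowest and the controls 5.04, 7.12 and 14.4 times, so they rest on very few fragments.

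Genes of Kasumi-1 cells were measured in the same NB4 samples. The third NB4 control sample, which had the highest ERG, also had the highest RUNX1T1, TRH, CD34, KIT and ELANE of the NB4 samples. As a percent of the mean in Kasumi-1 control, that sample held 1.61 for ERG, 0.895 for RUNX1T1, 0.548 for TRH, 1.35 for CD34, 0.95 for KIT and 0.962 for ELANE. In the first NB4 control sample RUNX1T1 and TRH were listed at 0 while ERG stood at 0.542 percent. POU4F1 did not follow, at 5.44 to 11.3 percent in the NB4 samples of both groups. ELANE was taken from the primary granule genes. The others, MPO, PRTN3, AZU1 and CTSG, also had higher means in Kasumi-1 control than in NB4 control. They were highest in the second NB4 control sample (3323, 449, 83.2 and 86.3 FPKM), above the third (2972, 259, 57.6 and 29.5 FPKM). As an alternative, the median percent over RUNX1T1, TRH and POU4F1 in each sample was subtracted. In every NB4 sample this median equalled the percent of RUNX1T1. The subtraction left ERG at 0.0621, 0.0619 and 0.0817 FPKM in control and 0.00834, 0.0242 and 0.0321 FPKM with OGP46. The groups still did not overlap, with a log2 fold change of -0.47 (adjusted p = 0.0924, limma).

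**Figure D4:**
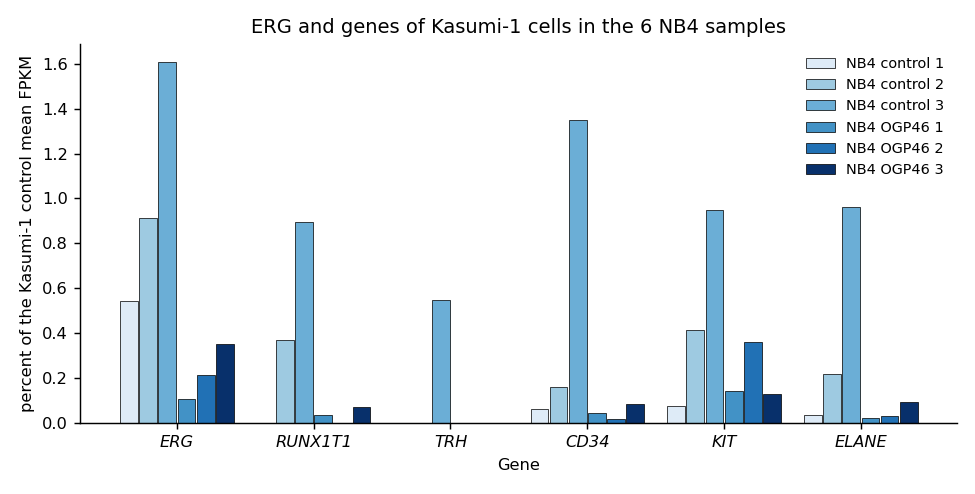
Level of ERG, of genes that mark Kasumi-1 cells and of the granule gene ELANE in each NB4 sample. Shown is the percent of the mean FPKM in Kasumi-1 control (y), with 1 bar per sample and the genes along x. The third control sample has the tallest bar for each of the 6 genes shown (1.61 percent for ERG). Of these, ERG alone has all 3 treated samples below all 3 controls. Not drawn are POU4F1, highest in the second OGP46 sample, and MPO, PRTN3, AZU1 and CTSG, highest in the second control sample.

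In Kasumi-1 cells, 8 of the 10 genes were tested for OGP46 against control, and ETS1 and SPIB were under the minimum. None was called, where 0.0338% of the 11835 genes tested were, and none had an unadjusted p below 0.05 in limma, where 15.6% of all genes did. With sample number as a block, 73 genes were called in place of 4, or 0.617% of those tested, none of them among the 8. The log2 fold changes ran from -0.12 to 0.22, with a median of 0.01 beside 0.05 for all genes. ERG was at 11.1, 10.8 and 10.2 FPKM after OGP46 beside 11.5, 11.6 and 11.2 FPKM. The treated samples were all lower, by a log2 fold change of -0.10 with a 95% confidence interval of -0.24 to 0.04 (adjusted p = 0.464, limma). ETV6 was also lower in all treated samples, with 13.1, 12.8 and 13.2 FPKM beside 14.3, 14.6 and 13.8 FPKM (log2 fold change -0.12, SE 0.06, adjusted p = 0.352, limma). Such a separation downward was seen for 2 of the 8 and for 5.23% of all genes.

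The other ETS genes overlapped between the Kasumi-1 groups. SPI1 was at 30.5, 28.4 and 31.5 FPKM after OGP46 beside 28.8, 32.6 and 30.6 FPKM (log2 fold change -0.02, 95% confidence interval -0.18 to 0.13, adjusted p = 0.889, limma). FLI1 was at 24.0, 21.1 and 21.4 FPKM beside 22.2, 21.7 and 20.4 FPKM, ELF1 at 21.06, 21.002 and 22.01 FPKM beside 20.3, 20.6 and 21.4 FPKM, and ETS2 at 10.2, 9.62 and 10.3 FPKM beside 10.1, 10.01 and 11.4 FPKM. ELF4 and GABPA had the values farthest above 0. ELF4 was at 4.81, 4.68 and 5.28 FPKM beside 4.10, 3.76 and 4.82 FPKM (log2 fold change 0.22, SE 0.10, adjusted p = 0.341, limma), and GABPA at 9.33, 8.23 and 10.3 FPKM beside 7.84, 7.26 and 8.97 FPKM (0.21, SE 0.10, adjusted p = 0.357). Both were higher in all 3 same-numbered pairs. ETS1 stayed at 0.00885, 0.0165 and 0.0155 FPKM after OGP46, which is 1 to 2 times the lowest value above 0, and SPIB at 0.0493, 0.0815 and 0.0645 FPKM beside 0.0404, 0.0350 and 0.0809 FPKM.

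**Figure D5:**
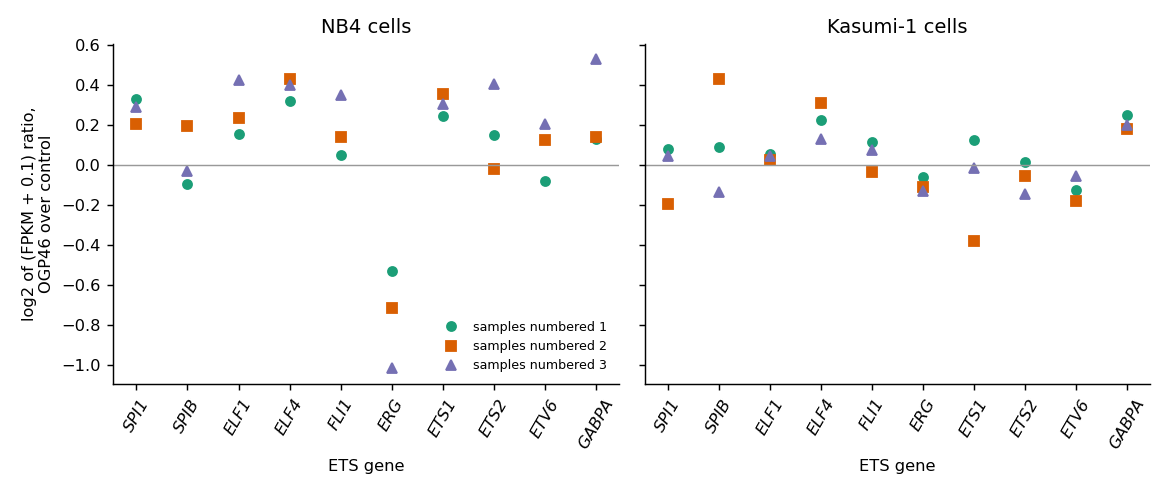
Log2 ratio of FPKM + 0.1 between the OGP46 and control samples of the same number (y) for the 10 ETS genes (x), with 1 symbol per pair, in NB4 (left) and Kasumi-1 cells (right). In NB4 the pairs of SPI1, ELF1, ELF4, FLI1, ETS1 and GABPA are all above 0 and those of ERG are at -0.53, -0.72 and -1.02, while in Kasumi-1 most pairs lie near 0.

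Whether OGP46 acted differently on a gene in the 2 lines was tested by the interaction of line and treatment in 1 model of all 12 samples. No gene of the 12309 tested passed, 0% by this rule, although 11% had an unadjusted p below 0.05, among them ERG and SPI1 of the 9 ETS genes tested. For SPI1 the response was the higher one in NB4, by 0.30 on the log2 scale (SE 0.10, adjusted p = 0.328, limma), and for ERG the difference of NB4 minus Kasumi-1 was -0.66 (SE 0.25, adjusted p = 0.377, limma). ERG reached the minimum level in this model only through its Kasumi-1 samples. Its difference was -0.0284 for a constant of 1 and -1.70 for 0.01, so the size is set by the constant added. ETS1 reached the minimum only through its NB4 samples. At no more than 0.0519 FPKM in Kasumi-1, a response of ETS1 there could hardly be seen. With the block 237 genes passed (1.93%) and none of the 9. A difference between the lines in the response of the ETS genes was thus not detectable in these samples.

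The rest of the family was taken from a list of 19 other ETS genes, of which 18 were in the data. ELF5, EHF and SPIC were listed at 0 in every sample, and 8 were tested in NB4. Of these 8, 1 was called higher with OGP46 and 0 lower, and 7 separated upward, where 1.45% of all genes were called higher, 0.111% lower and 32.7% separated upward. The called gene was ELK3, a ternary complex factor that joins serum response factor at MAP kinase target genes and represses them until it is phosphorylated. It was at 6.49, 6.40 and 5.90 FPKM in NB4 control and 10.4, 9.92 and 11.03 FPKM in NB4 OGP46. All treated samples were well above the controls, 1.66-fold on this scale (log2 fold change 0.73, SE 0.09, adjusted p = 0.0226, limma). In Kasumi-1 it was at 8.05, 7.86 and 9.40 FPKM beside 7.36, 8.35 and 9.63 FPKM, without a difference to be seen. The interaction of 0.73 did not pass without the block (adjusted p = 0.104) and passed with it (adjusted p = 0.0209).

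The call of ELK3 in NB4 was lost after median centring (log2 fold change 0.51, adjusted p = 0.109), after TPM scaling (0.60, adjusted p = 0.0787), without the filter on low values (adjusted p = 0.0556) and on leaving out any single NB4 sample except the second OGP46 sample, with adjusted p up to 0.134. Its log2 fold change was 0.51 to 0.75 in these settings, and over all alternatives the adjusted p ran from 5.74e-04 to 0.134 in NB4 and from 0.0209 to 0.41 in the interaction. Of the more abundant relatives in NB4, ELK1 was at 17.8 ± 0.771 FPKM in control and 20.3 ± 0.471 FPKM with OGP46, ETV5 at 12.8 ± 1.61 and 17.8 ± 3.08 FPKM, ETV4 at 10.6 ± 1.89 and 13.7 ± 1.23 FPKM, and ERF at 8.52 ± 0.482 and 10.01 ± 1.67 FPKM (SD, n = 3), none of them called. In Kasumi-1, 10 of the list were tested and none was called, with 3 at an unadjusted p below 0.05 in limma, where 0.0338% of all genes were called and 15.6% passed unadjusted. The largest value above 0 was that of ETV5 (log2 fold change 0.53, SE 0.12, adjusted p = 0.104). Between the control samples, ERF, an ETS repressor (log2 fold change 1.41), and ELK4 (0.95) were higher in Kasumi-1, and ETV4 (-4.14) and ETV5 (-1.46), a pair of close relatives induced by receptor kinase signaling, were lower.

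Partner factors did not pass in either line with OGP46. In NB4, 10 of the 12 were tested, none was called and 2 had an unadjusted p below 0.05 in limma, CBFB (log2 fold change 0.34, adjusted p = 0.0627) and LMO2 (0.33, adjusted p = 0.0683), where 1.56% of all genes were called and 29.1% passed unadjusted. In Kasumi-1, 11 were tested, none was called and 1, GATA2, had an unadjusted p below 0.05 (log2 fold change 0.22, adjusted p = 0.183), where 0.0338% of all genes were called and 15.6% passed unadjusted. IRF8 was at 22.4 ± 1.94 FPKM in NB4 control and 28.0 ± 5.0 FPKM in NB4 OGP46, and RUNX1 at 14.5 ± 0.92 and 15.9 ± 1.75 FPKM (SD, n = 3).

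Genes long known as targets of PU.1 in myeloid cells were followed from a list of 15. In NB4, 14 were tested, 2 rose and 0 fell, beside 1.56% called of all genes. Of the 14, 8 had an unadjusted p below 0.05 in limma, where 29.1% of all genes did. ITGAM, the integrin chain CD11b, rose from 2.74 ± 0.29 to 5.93 ± 0.861 FPKM (SD, n = 3, log2 fold change 1.08, adjusted p = 0.0233, limma). CD68, a lysosomal protein of macrophages, rose from 8.93 ± 1.24 to 13.7 ± 1.01 FPKM (0.62, adjusted p = 0.0399). Both calls were lost after TPM scaling, after median centring and without a minimum level. That of CD68 was also lost for a constant of 1 (0.57), with the block and median centring together (0.40) and on leaving out any 1 NB4 sample, and that of ITGAM on leaving out any except the second OGP46 sample. With the block 7 of the list were called higher, CD14, IL1B, ITGAM, CYBB, CD68, CSF1R and NCF4, and ELANE lower, where 5.06% of all genes were called higher and 1.15% lower. The median log2 fold change of the 14 was 0.56 beside 0.18 for all genes. CD14, ITGAM and IL1B in NB4 and TLR4 in Kasumi-1 had been named by the study from these samples, so the direction of the list is not independent evidence.

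Without the block, IL1B (log2 fold change 1.97, adjusted p = 0.0817) and CYBB (0.63, adjusted p = 0.0726) did not pass in NB4, nor did ELANE (-2.17, adjusted p = 0.192), whose highest NB4 value was again that of the third control sample. LYZ was at 318 ± 63.9 FPKM in control and 314 ± 52.3 FPKM with OGP46. In Kasumi-1, 12 were tested, none was called (0.0338% of all genes) and 5 had an unadjusted p below 0.05 (15.6% of all genes), with TLR4 (log2 fold change 0.54), CD68 (0.47) and IL1B (0.42) at the upper end and ELANE (-0.49), BTK (-0.11) and CSF3R (-0.05) at the lower end. Between the control samples, many of the 15 differed. ELANE (8.91), CSF3R (4.198), FCGR1A (1.28) and NCF4 (0.83) were called higher in Kasumi-1 control, and CYBB (-6.26), ITGAM (-3.93), LYZ (-2.97) and TLR4 (-1.78) lower, given as log2 fold changes, 8 of the 13 tested beside 52.4% of all genes.

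The genes whose levels ran most like those of ERG and SPI1 over the 12 samples were searched among 9943 genes whose mean reached 1 FPKM. For ERG these were DEPTOR, GALNT14 and CYP2U1 with Pearson correlations of 0.999 each on the log scale, and DEPTOR was at a mean of 10.1 FPKM in Kasumi-1 control and 0.161 FPKM in NB4 control. Such values follow from the gap between the lines, which the 12 samples share. For SPI1 they were FHL3 (0.96), PPM1F (0.954) and ARHGAP25 (0.953). ARHGAP25 was at a mean of 5.13 FPKM in NB4 control, 7.64 FPKM in NB4 OGP46, 4.91 FPKM in Kasumi-1 control and 5.17 FPKM in Kasumi-1 OGP46.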

How the data were processed

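Poly(A) mRNA of 12 samples was sequenced from libraries of a stranded kit. The authors deposited 1 FPKM value per gene symbol and sample. The submitters' processing notes name Trimmomatic, HISAT2, Cufflinks, HTSeq and the build hg38, and which tool made the FPKM, the annotation and the versions are not given in the sources used here. Overlapping genes, antisense pairs and paralogs may share reads. The values carry no counts, so depth and counting error are unknown, and precision rests on 3 samples a group, where an exact two-sided permutation test cannot go below 0.1.

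After 27 symbols turned into dates were left out, log2(FPKM + 0.1) was tested with limma 3.58.1 in R 4.3.3 (empirical Bayes with trend, Benjamini-Hochberg over all genes tested, minimum mean 0.1 FPKM, thresholds of the study's methods). The fits were tested on simulated data. Within each line, same-numbered samples deviated together. Over genes whose mean reached 0.1 FPKM, their correlations were 0.197 to 0.622 in NB4 and 0.157 to 0.395 in Kasumi-1. Samples of different numbers had correlations of -0.468 to 0.224 in NB4 and -0.278 to 0.101 in Kasumi-1. At this minimum the third NB4 pair (0.197) was no closer than NB4 control 1 with NB4 OGP46 3 (0.224). Over genes whose mean reached 5 FPKM, the third pair was closer (0.439 against 0.289). Same-numbered samples there had correlations of 0.439 to 0.850 in NB4 and 0.416 to 0.621 in Kasumi-1. A fit with sample number as a block was made as an alternative. Other settings were constants of 1 and 0.01, no minimum or 1 FPKM, TPM scaling, median centring, subtraction of Kasumi-1 signal from NB4 samples and leaving out each sample, and, added after the data were seen, the block without a minimum and ERG in NB4 without a minimum. Members and lists were chosen with earlier results of these data known. Named were all members, other ETS genes and partners that were called or abundant, PU.1 targets that were called or at the ends, and the 3 genes most like ERG and SPI1. A gene of the PU.1 target list and a marker gene are not reported here and were left out of the counts.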

Additional observations from a re-analysis of the deposited data

Results flagged for a closer look

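With sample number as a block, 4 of the genes named passed the test for an interaction of line and OGP46. Of all genes tested, 1.93% passed. The adjusted p of this interaction in limma was 0.0209 for ELK3, 0.0209 for CD14, 0.0342 for ITGAM and 0.0342 for IL1B, and the response in NB4 was the higher one, by log2 differences of 0.73, 1.77, 0.94 and 1.55, respectively. Without the block none of the 4 passed, with adjusted p of 0.104, 0.238, 0.151 and 0.454. In Kasumi-1 samples CD14 was at 0 to 0.0281 FPKM and ITGAM at 0.0782 to 0.139 FPKM, near or below the constant of 0.1. A response of CD14 or ITGAM there could hardly be seen, so their differences mainly restate the change in NB4. Over all alternatives the adjusted p ran from 0.0209 to 0.41 for ELK3, 0.0209 to 0.51 for CD14, 0.0342 to 0.372 for ITGAM and 0.0342 to 0.808 for IL1B. None of the 10 ETS genes was among the 4.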

How the results depend on the processing

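Among the 10 ETS genes, 0 were called with OGP46 in each line and in the interaction under every alternative run, except ERG in NB4 when fitted without a minimum level, with the block and with median centring. Between the lines 6 were called under every alternative except TPM scaling, where 4 were, without FLI1 (0.56) and ETV6 (0.57). The counts over all genes were not stable. For NB4 OGP46 against control, 183 genes were called, against 117 with a constant of 1, 4 without a minimum level, 0 after TPM scaling, 0 after median centring, 730 with the replicate block and 391 with the block and median centring, and from 0 to 396 on leaving out 1 sample, the highest without the second OGP46 sample. For Kasumi-1 OGP46 against control, 4 genes were called, against 2 with a constant of 1, 0 without a minimum, 24 with a minimum of 1 FPKM, 18 after TPM scaling, 18 after median centring, 73 with the block, 93 with the block and median centring, 0 with the block and no minimum, and 0 to 11 on leaving out 1 sample. The interaction passed for 0 genes, against 14 with a constant of 1, 237 with the block, 144 with the block and median centring, 27 with the block and no minimum, and 0 to 1 on leaving out 1 sample. Between the lines 6449 genes were called, and 6366 to 6449 on leaving out 1 sample. The split there of 3659 higher and 2790 lower in Kasumi-1 turned to 3004 and 3585 after TPM scaling.

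Directions turned only for changes near 0 that had not passed. In NB4, median centring, with or without the block, gave log2 fold changes of -0.0412 for FLI1, -0.14 for ETV6 and -0.045 for ETS2, and TPM scaling -0.0433 for ETV6. In Kasumi-1, median centring gave -0.0187 for FLI1 and -0.0264 for ELF1. In the interaction, FLI1 was at -0.0139 after TPM scaling and -0.0185 after median centring, and GABPA at -0.0888 and -0.0947. On leaving out 1 sample, ETV6 in NB4 ranged from -0.05 to 0.21, FLI1 in Kasumi-1 from -0.0096 to 0.0819, SPI1 in Kasumi-1 from -0.0691 to 0.0197, GABPA in the interaction from -0.0292 to 0.133 and SPI1 between the lines from -0.0623 to 0.0265. The cause was not tested. The replicate block on its own changed no call of the 10 ETS genes. Depth is unknown, and values near 0.1 FPKM or below, those of ERG in NB4, ETS1 in Kasumi-1 and SPIB, depend on the constant added.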
